A study of Mus musculus with 2 samples.

Results

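Apln, Aplnr, Edn1, Ednra, Ednrb and Ece1, the core genes of apelin and endothelin signalling, were followed through the endothelial types and states, pericytes and fibroblasts of chimeric mouse lungs. The genes were taken by symbol, each matched 1 gene identifier, and all 6 were present among the 32285 genes of both count matrices. Apelin, the product of Apln, is a secreted peptide that acts on the G protein-coupled receptor encoded by Aplnr. In the lung capillary bed, apelin is known as a product of aerocytes, the large thin capillary cells that line the gas exchange surface, and its receptor as a product of general capillary cells, which maintain and renew the bed. Edn1 encodes the precursor of endothelin-1, a strong constrictor peptide that endothelium releases, and Ece1 encodes the membrane protease that cuts big endothelin to the active peptide. The receptor encoded by Ednra mediates contraction in smooth muscle and acts on other mesenchymal cells, while the receptor encoded by Ednrb binds and clears endothelin and can trigger nitric oxide release when it sits on endothelium.

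The donor library held CD45-negative cells that carried tdTomato, 6 months after tdTomato-labelled single cells had been transplanted into C57Bl mice. The recipient library held the CD45-negative cells without tdTomato from the same lungs. The lungs of 3 chimeric mice were pooled before sorting, so each group was 1 library, the mice could not be told apart, and no test between groups was possible. The labels used here give neither the donor strain nor any conditioning of the recipients, and both libraries came from transplanted lungs, with no untransplanted lung among the samples used here.

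The donor library had 6319 barcodes with 37997269 UMIs, of which 4686 cells were kept at a median of 6015.5 UMIs, and the recipient library had 3784 barcodes with 26201315 UMIs, of which 3202 were kept at a median of 6366.5. A UMI marks 1 captured RNA molecule, and levels are given as UMIs of a gene per 1000000 UMIs of all cells in a gate (CPM) with exact Poisson 95% intervals, which cover counting error only. Cell types were gated by the UMIs of marker genes, and none of the 6 genes was a marker. The donor library gave 1487 aerocytes, 2513 general capillary cells, 97 arterial, 171 venous and 45 pericyte cells, but only 4 lymphatic cells and 17 fibroblasts. The recipient library gave 611 aerocytes, 398 general capillary cells, 38 arterial, 114 venous, 72 lymphatic and 508 pericyte cells, with 676 alveolar fibroblasts, 96 adventitial fibroblasts and 195 myofibroblasts. Comparisons between the libraries were therefore limited to general capillary cells, aerocytes and venous cells, with alveolar type 1 cells (85 donor, 198 recipient) as an epithelial background. The leukocyte marker Ptprc was at or below 0.446 CPM in every gate. Car4 was at 3947 CPM in donor and 4186 CPM in recipient aerocytes, and Gpihbp1 at 2372 and 2229 CPM in donor and recipient general capillary cells. The general capillary markers (Gpihbp1, Kit, Sema3c, Lpl and Plvap) summed to 7634 CPM in donor and 6938 CPM in recipient general capillary cells. They were also high in arterial cells, at 6730 and 4747 CPM, and in venous cells, at 4427 and 3741 CPM. The part of capillary cells in the arterial and venous gates was not tested. The libraries shared 816 barcodes, of which 728 were over 5 times smaller in the donor library. Shared barcodes made up 5 of 1487 donor and 8 of 611 recipient aerocytes and 9 of 2513 donor and 5 of 398 recipient general capillary cells, but 55 of 85 donor and 159 of 198 recipient alveolar type 1 cells. In the recipient library they also made up 66 of 96 adventitial fibroblasts, 215 of 676 alveolar fibroblasts and 63 of 195 myofibroblasts.

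The start sites of Apln, Ednrb and Edn1 are shown because these 3 genes stood far apart between the capillary types described next. Aplnr did so as well, but stretches matched 5 of the 6 members, all but Aplnr. Each sequence is the RefSeq stretch from 250 bases before to 50 bases after the start on the GRCm38.p6 build, read 5′ to 3′ on the gene's strand. Capitals mark GGAA, the core letters of ETS factor motifs, on either strand. In Edn1 they also mark the letters of a GATA factor motif, AGATAA, searched on either strand as well. The Apln stretch lies on the minus strand at chrX:48034804-48035103, Ednrb on the minus strand at chr14:103843652-103843951, and Edn1 on the plus strand at chr13:42301226-42301525.
Apln: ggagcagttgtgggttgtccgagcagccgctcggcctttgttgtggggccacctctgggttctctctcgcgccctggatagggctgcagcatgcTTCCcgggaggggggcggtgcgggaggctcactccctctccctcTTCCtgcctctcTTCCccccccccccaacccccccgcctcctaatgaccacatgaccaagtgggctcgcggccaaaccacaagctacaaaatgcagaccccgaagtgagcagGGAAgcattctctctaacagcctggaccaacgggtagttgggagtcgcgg
Ednrb: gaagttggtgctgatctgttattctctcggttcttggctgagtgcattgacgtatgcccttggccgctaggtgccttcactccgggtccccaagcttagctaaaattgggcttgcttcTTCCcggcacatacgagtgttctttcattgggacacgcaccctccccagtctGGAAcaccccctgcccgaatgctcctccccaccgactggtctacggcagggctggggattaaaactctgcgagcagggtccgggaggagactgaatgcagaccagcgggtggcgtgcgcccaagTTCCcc
Edn1: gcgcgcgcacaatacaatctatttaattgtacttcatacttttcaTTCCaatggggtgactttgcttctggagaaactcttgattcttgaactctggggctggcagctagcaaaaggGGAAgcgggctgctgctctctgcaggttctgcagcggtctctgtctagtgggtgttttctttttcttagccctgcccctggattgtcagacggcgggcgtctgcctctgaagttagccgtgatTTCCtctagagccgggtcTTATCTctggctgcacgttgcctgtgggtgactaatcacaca
The Apln stretch held 4 matches to GGAA, Ednrb 3 and Edn1 3, but 96.0% of 32851 mouse promoter stretches of the same length hold at least 1. AGATAA matched once in Edn1 and in neither of the other two, against 11.2% of all stretches. The letters ACAAT, found in SOX motifs, matched 4 times in Edn1 and not in Apln or Ednrb, against 31.0% of all stretches, and ACGTG, the hypoxia response core, matched once in Edn1 against 19.6%. AGGTGT, found in T-box motifs, matched in none of the 3 shown and in 13.7% of all stretches. All motifs were searched on both strands, and no matches overlapped in the 3 stretches shown. The whole gene of Apln spans chrX:48025146-48034853 on the minus strand, Aplnr chr2:85136225-85139923 on the plus strand, Edn1 chr13:42301476-42307990 on the plus strand, Ednra chr8:77663031-77724464 on the minus strand, Ednrb chr14:103814625-103844402 on the minus strand, and Ece1 chr4:137862237-137965229 on the plus strand, in GENCODE M21.

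Among the ligands, Apln was an aerocyte gene in both libraries. It was at 480.0 CPM (468 to 492) in donor aerocytes and 482 CPM (462 to 502) in recipient aerocytes. Among gates of at least 50 cells, venous cells came next, at 27.4 CPM (19.9 to 37.0) in the donor and 12.6 CPM (6.50 to 22.0) in the recipient library, although 24 of 43 donor and 8 of 12 recipient venous UMIs lay in 3 cells each. General capillary cells had 12.03 CPM (10.3 to 14.0) in the donor and 7.37 CPM (4.29 to 11.8) in the recipient library. Only 7 of those 17 recipient UMIs lay outside the 3 highest cells. The aerocyte level was 17.5 times that of the next such gate in the donor and 38.3 times in the recipient library, and neighbouring gates below the venous one had overlapping intervals in each library, as did venous and general capillary cells of the recipient library. Apln was near or at 0 in mesenchyme: 0 UMIs in 45 donor pericytes, and between 0 and 1.87 CPM in recipient pericytes and the 3 recipient fibroblast types.

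Most aerocytes carried Apln. A UMI was found in 1327 of 1487 donor aerocytes (89.2%) and 526 of 611 recipient aerocytes (86.1%), at median depths of 8807 and 7581 UMIs. In recipient myofibroblasts, the recipient gate with the lowest Apln, the share was 0 of 195 at a median of 6748 UMIs, with an upper limit of 2.49 CPM. After thinning every cell to 3000 UMIs, which left out 25 donor and 17 recipient aerocytes, the shares were 67.2% and 69.5%. The median donor aerocyte held 3 Apln UMIs and the highest held 38, and the tenth of donor aerocytes with the most Apln held 29.9% of its UMIs.

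Edn1, the endothelin-1 precursor, had nearly the opposite distribution among the blood vessel gates, and like Apln was low elsewhere. Aerocytes had 8.76 CPM (7.25 to 10.49) in the donor and 8.97 CPM (6.47 to 12.1) in the recipient library, where 1 cell held 20 of the 42 UMIs. Edn1 was at 958 CPM (886 to 1034) in donor and 919 CPM (812 to 1035) in recipient arterial cells, and at 652 CPM (639 to 666) in donor and 791 CPM (755 to 828) in recipient general capillary cells. Venous cells had 550.2 CPM (514 to 588) in the donor and 521 CPM (476 to 569) in the recipient library. All 3 of these types were far above aerocytes. The recipient lymphatic cells had 4.77 CPM from 2 UMIs, and pericytes, fibroblasts and alveolar type 1 cells of the recipient library lay between 1.49 and 6.94 CPM. In donor cells the order arterial, general capillary, venous had no overlapping neighbours. In the recipient library the intervals of the 38 arterial cells and the general capillary cells overlapped, and venous cells were below both.

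Within general capillary cells, Edn1 was also the most unevenly spread of the abundant members. A UMI was found in 6.66% of donor and 2.95% of recipient aerocytes, against 1772 of 2513 donor (70.5%) and 283 of 398 recipient general capillary cells (71.1%). The tenth of general capillary cells with the most Edn1 held 43.9% of its UMIs in the donor and 45.9% in the recipient library. For Ece1 in the same cells those shares were 23.7% and 28.3%, and for Aplnr 38.2% and 32.7%. The median donor cell held 2 Edn1 UMIs and the highest 56, and in the recipient library the median was also 2 and the highest 61. Low and high Edn1 cells thus coexisted within each library's general capillary gate.

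Among the receptors, Aplnr was highest in general capillary cells and lower in the venous and arterial gates. Aerocytes had 2.97 CPM from 40 UMIs in the donor and 1.07 CPM from 5 UMIs in the recipient library. Aplnr was at 203 CPM (195 to 210) in donor and 297 CPM (276 to 321) in recipient general capillary cells. Venous cells had 95.1 CPM (80.5 to 112) in the donor and 79.7 CPM (62.8 to 99.7) in the recipient library, and arterial cells had 69.7 CPM (51.4 to 92.4) and 54.6 CPM (31.2 to 88.7), so those neighbours overlapped. Doubling the marker minimum of the venous gate gave 47.2 CPM in donor and 47.6 CPM in recipient venous cells, so the venous value depended on how strictly that gate was drawn. The recipient share of aerocytes with an Aplnr UMI, 0.818%, was below the 1.18% of recipient pericytes, at median depths of 7581 and 5060 UMIs. No donor aerocyte held more than 1 Aplnr UMI. The part of RNA from other cells in these aerocyte values was not tested. Lymphatic cells of the recipient library had no Aplnr UMI in 72 cells, with an upper limit of 8.80 CPM.

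Ednrb, the endothelin receptor of endothelium, was found in almost every aerocyte. It was at 1477 CPM (1457 to 1498) in donor and 1676 CPM (1639 to 1713) in recipient aerocytes, and a UMI was present in 1482 of 1487 donor cells and all 611 recipient cells. After thinning to 3000 UMIs the shares were 96.9% in donor and 97.0% in recipient aerocytes, against 4.57% and 3.47% of general capillary cells. General capillary cells had 16.3 CPM (14.2 to 18.5) in the donor and 15.6 CPM (10.9 to 21.6) in the recipient library. Only 14 of those 36 recipient UMIs lay outside the 3 highest cells.

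The Ednrb levels of the arterial and venous gates rested on a few cells. Donor arterial cells had 68.2 CPM, of which 43 of 47 UMIs lay in 3 of 97 cells, and recipient arterial cells had 41.0 CPM with all 12 UMIs in 3 of 38 cells. Donor venous cells had 48.5 CPM with 61 of 76 UMIs in 3 of 171 cells, and recipient venous cells 25.2 CPM with 18 of 24 UMIs in 3 of 114 cells. The highest cell of each gate alone held 40 of the donor and 10 of the recipient arterial UMIs. In the venous gates it held 31 of the donor and 15 of the recipient UMIs. With the barcodes of the highest doublet scores kept, the levels were 219 CPM in donor arterial and 121 CPM in donor venous cells, and without shared barcodes the donor venous level was 29.7 CPM. A more even low level was seen in recipient myofibroblasts, contractile fibroblasts of the alveolar ducts, at 62.1 CPM (50.05 to 76.1) with a UMI in 49 of 195 cells (25.1%), and at 78.6 CPM without shared barcodes. The other mesenchymal gates of that library were lower, with 6.66 CPM (4.56 to 9.40) in alveolar fibroblasts, 3.72 CPM (1.78 to 6.83) in pericytes and 1.98 CPM (0.240 to 7.16) in adventitial fibroblasts. Recipient lymphatic cells had 35.8 CPM (20.02 to 59.0) from 15 UMIs in 8 of 72 cells.

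Ednra, the contractile endothelin receptor, belonged to mesenchyme. In the recipient library it was at 447 CPM (422 to 473) in pericytes and 513 CPM (493 to 534) in alveolar fibroblasts, with intervals that did not overlap, then at 157 CPM (137 to 178) in myofibroblasts and 71.4 CPM (55.9 to 89.9) in adventitial fibroblasts. The 45 donor pericytes had 415 CPM (339 to 504), which overlapped the recipient pericytes. A UMI was found in 38 of 45 donor pericytes (84.4%), in 427 of 508 recipient pericytes (84.1%) and in 617 of 676 recipient alveolar fibroblasts (91.3%). Thinned to 3000 UMIs, the shares were 61.9% of donor pericytes, 70.1% of recipient pericytes and 74.8% of alveolar fibroblasts. Without shared barcodes, alveolar fibroblasts had 546 CPM and myofibroblasts 146 CPM. Doubling the marker minimum of the myofibroblast gate gave 111 CPM, so that gate's place in the order held but its level moved.

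Endothelial Ednra was close to 0 in the donor library. Donor general capillary cells had 1 UMI in 2513 cells, arterial cells 0, venous cells 1 and aerocytes 9 UMIs, so every donor endothelial gate was at or below 0.668 CPM. The recipient blood vessel gates were higher, at 3.902 CPM in general capillary cells, 6.41 CPM in aerocytes and 5.24 CPM in venous cells. The 38 recipient arterial cells had 37.6 CPM, where 9 of 11 UMIs lay in 3 cells, while the 72 recipient lymphatic cells had 0 UMIs, with an upper limit of 8.80 CPM. The summed CPM of the 5 fibroblast markers (Col1a1, Col1a2, Col3a1, Dcn and Pdgfra) moved the same way between the libraries in the blood vessel gates: it was between 0 and 7.02 in the donor general capillary, aerocyte, arterial and venous gates, with all 5 at 0 in arterial cells, and between 61.5 and 82.8 in the same recipient gates, with none at 0. In recipient lymphatic cells, which had no Ednra UMI, it was higher still, at 97.8 CPM. The part of fibroblast RNA in the Ednra values was not tested, and the share of recipient general capillary cells with an Ednra UMI (2.26%) was close to the 2.02% of recipient alveolar type 1 cells, at median depths of 5440 and 15659 UMIs. 

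Ece1, the converting enzyme, was the broadest member of endothelium. Aerocytes had 551 CPM (538 to 563) in the donor and 572 CPM (550.1 to 594) in the recipient library. Ece1 was at 1049.5 CPM (974 to 1129) in donor and 857 CPM (754 to 970.1) in recipient arterial cells, at 932 CPM (916 to 948) and 744 CPM (709 to 780.1) in donor and recipient general capillary cells, and at 792 CPM (749 to 837) and 686 CPM (634 to 740.1) in venous cells. Recipient lymphatic cells had 391 CPM (333 to 456). Unlike Edn1, the enzyme was present in both capillary types, and recipient general capillary and venous cells overlapped. Outside endothelium it was lower: 101 CPM in donor and 137 CPM in recipient alveolar type 1 cells, 76.6 CPM in donor and 54.6 CPM in recipient pericytes, 81.0 CPM in recipient myofibroblasts and 31.7 CPM in adventitial fibroblasts. Alveolar fibroblasts, which had the highest Ednra, had the lowest Ece1, at 6.87 CPM (4.73 to 9.65). Pericytes exceeded alveolar fibroblasts in Ece1 by a log2 ratio of 2.99 (2.44 to 3.58), and Ednra was lower in pericytes by a log2 ratio of -0.20 (-0.30 to -0.10). Of the 4 members with at least 20 UMIs in those gates together, Ece1 alone was at least 4-fold apart, where 16.7% of all genes tested were.

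**Figure D1:**
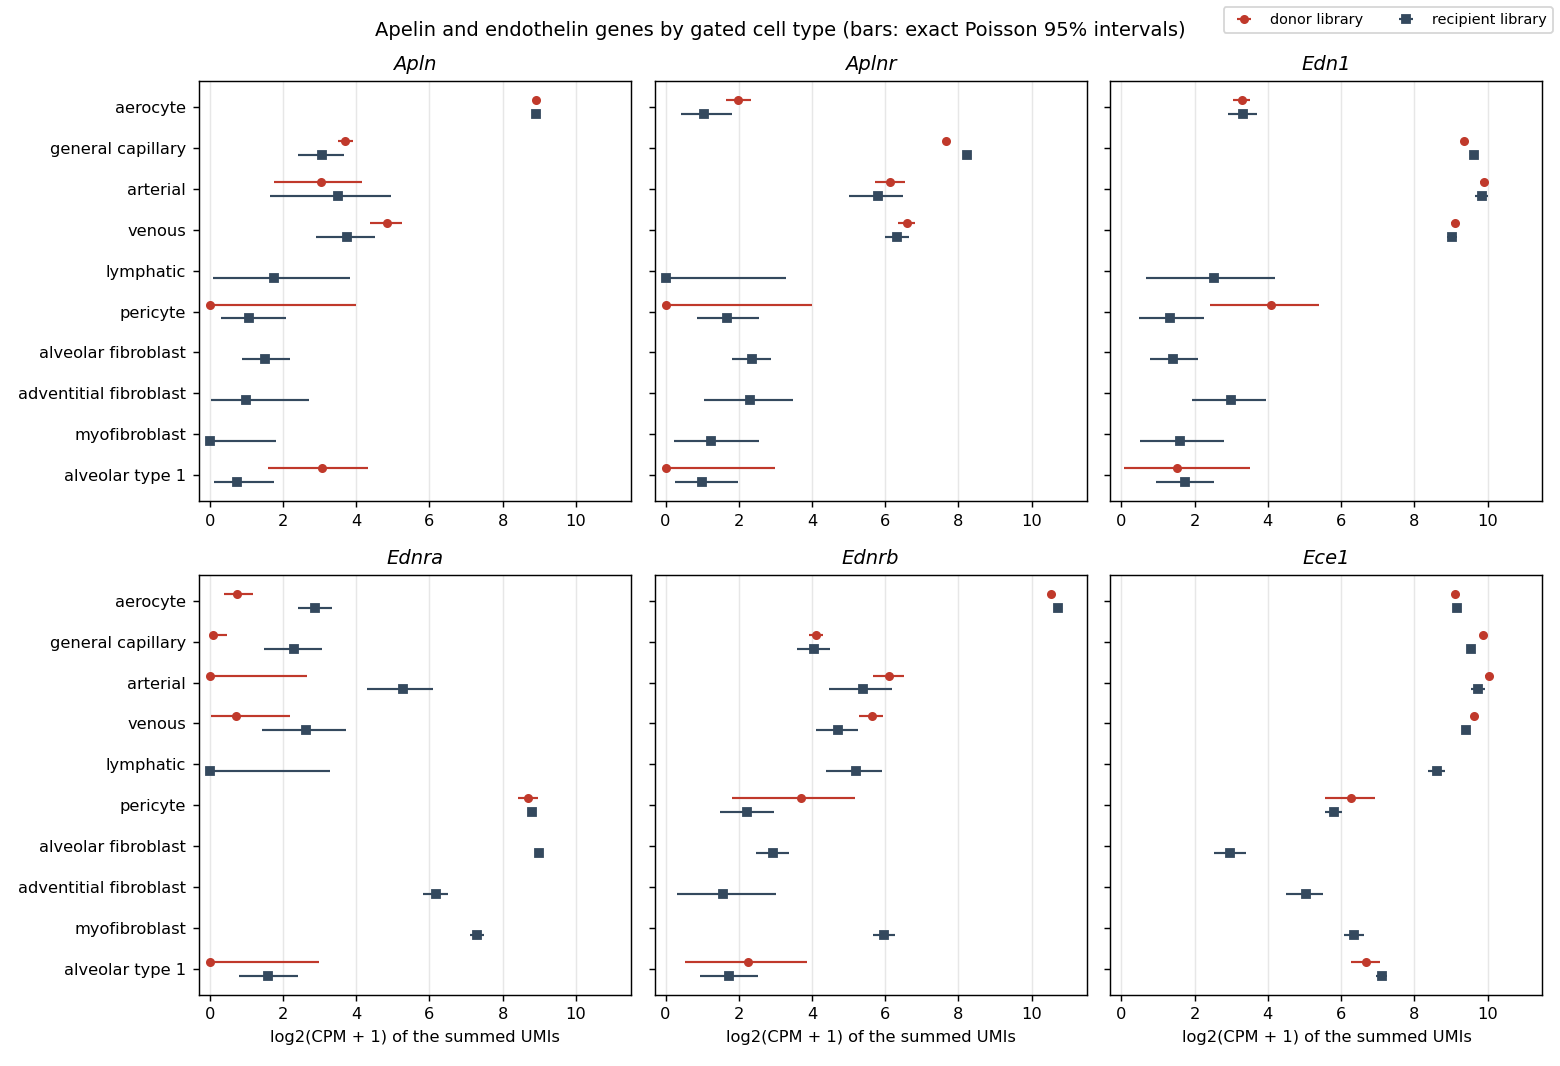
Level of each gene by gated cell type, as log2(CPM + 1) of the summed UMIs, with the donor library (red circles) above the recipient library (dark squares) in each row and exact Poisson 95% intervals as bars; gates under 20 cells are not drawn. Apln and Ednrb peak in aerocytes, Aplnr and Edn1 are low there and high in the other blood vessel gates, Ednra is high in pericytes and fibroblasts, and Ece1 is high across endothelium.

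The capillary types were then set against each other within each library. Aerocytes over general capillary cells gave log2 ratios for Apln of 5.32 (5.10 to 5.55) in the donor and 6.03 (5.35 to 6.81) in the recipient library. For Ednrb they were 6.50 (6.32 to 6.70) in the donor and 6.75 (6.28 to 7.26) in the recipient library. The recipient general capillary cells held 17 Apln and 36 Ednrb UMIs, with most UMIs of each gene in 3 cells. The signs were the other way for the partners of these genes: Aplnr had log2 ratios of -6.09 (-6.58 to -5.64) in the donor and -8.12 (-9.75 to -6.89) in the recipient library, and Edn1 of -6.22 (-6.49 to -5.96) and -6.46 (-6.94 to -6.02). Ece1 was also lower in aerocytes, by less than 4-fold, with log2 ratios of -0.76 (-0.80 to -0.72) in the donor and -0.38 (-0.47 to -0.29) in the recipient library. At least 4-fold apart were 4 of 5 members tested in the donor and 4 of 6 in the recipient library, while 12.9% of 12498 genes with at least 20 UMIs in both gates together were in the donor and 8.94% of 10905 in the recipient library.

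These members stood at both ends of the gene list. Ednrb ranked 10 from the top in the donor and 10 in the recipient library, and Apln ranked 54 and 17. From the lowest ratio upward, Aplnr ranked 27 in the donor and 4 in the recipient library, and Edn1 ranked 22 and 47. Ece1 had 76.4% of genes above it in the donor and 68.7% in the recipient library. The libraries came from the same 3 pooled lungs, so the second is not independent of the first. Under the alternative settings the log2 ratio of Apln ranged from 4.98 to 5.81 in the donor and from 5.93 to 7.31 in the recipient library, and that of Edn1 from -7.12 to -5.25 and from -7.27 to -6.16.

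**Figure D2:**
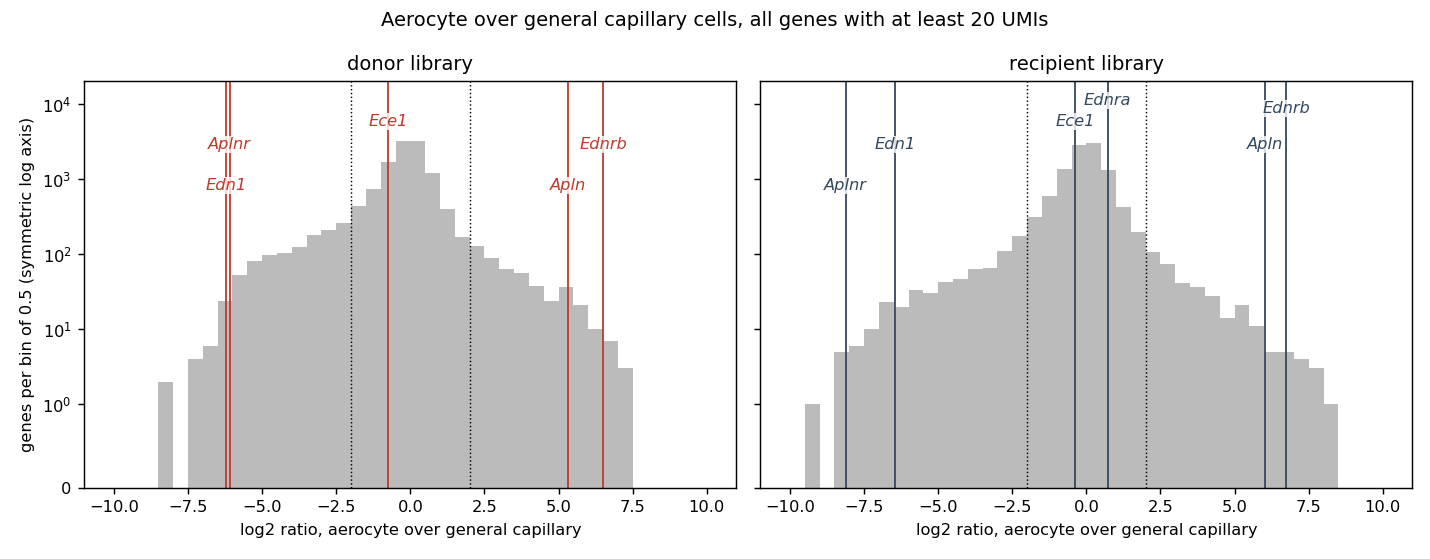
Number of genes (symmetric log axis) by log2 ratio of aerocytes over general capillary cells, donor library on the left and recipient library on the right, for genes with at least 20 UMIs in both gates together; coloured lines mark the members and dotted lines a 4-fold difference. Apln and Ednrb lie far to the right of most genes, Aplnr and Edn1 far to the left, and Ece1 near the centre.

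Cell by cell, Ednrb was in almost every aerocyte, with or without Apln. Of the donor aerocytes with Apln, 1326 of 1327 also had Ednrb, and of those without Apln, 156 of 160 had it. In the recipient library Ednrb was in 526 of 526 aerocytes with Apln and in 85 of 85 without. Only 5 donor aerocytes had no Ednrb UMI, and 4 of them also lacked Apln. Donor aerocytes without Apln were shallower, at a median of 7154 UMIs against 8995 with it. With Ednrb in nearly all donor and in all 611 recipient aerocytes, the comparison cannot show whether the pair goes together in single cells. Among general capillary cells, Aplnr was in 96 of 147 donor cells with Apln (65.3%) and in 1292 of 2366 without (54.6%), at median depths of 5912 and 5313.5 UMIs. In the recipient library it was in 7 of 10 and in 274 of 388. Ednrb, the aerocyte receptor, was in 15 of 147 donor cells with Apln (10.2%) and in 186 of 2366 without (7.86%), and in 4 of 10 recipient cells with Apln and 13 of 388 without (3.35%). The part of aerocyte RNA in these cells was not tested.

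Within general capillary cells, Aplnr followed Glp1r, the receptor for glucagon-like peptide that marks a large part of these cells. In cells with 0, 1 to 2, 3 to 4, and 5 or more Glp1r UMIs, Aplnr was at 132, 179, 233 and 242 CPM in the donor library. In the recipient library it was at 228, 262, 284 and 345 CPM. The level thus went up with each step in both libraries, although the last 2 donor bins and the neighbouring recipient bins had overlapping intervals. The recipient bin with 0 Glp1r UMIs had 49 cells, which held 22 Ednrb and 10 Apln UMIs. Median depth rose too, from 4838 to 6011.5 UMIs in the donor and from 4970 to 5792.5 in the recipient library. The part of depth was not tested. Cells with at least 3 Glp1r UMIs exceeded donor cells with none by a log2 ratio of 0.85 (0.68 to 1.03), with 238 CPM in 1228 cells and 132 CPM in 500 cells. Edn1 went the other way by less, at 604 and 695 CPM in those donor cells (log2 ratio -0.20, -0.28 to -0.12). Aplnr was the only 1 of the 5 members tested that was at least 1.5-fold apart, where 11.8% of all genes were.

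The endothelin ligand and its enzyme followed Hey1 and Sema3g, genes of arterial-leaning endothelium. Over 0, 1 to 2, 3 to 4, and 5 or more summed UMIs of the pair, Edn1 was at 538, 607, 653 and 728 CPM in the donor library, where the bins of 1 to 2 and 3 to 4 UMIs overlapped. It was at 372, 715, 1032 and 991 CPM in the recipient library, where the last 2 bins overlapped. Ece1 was at 702, 805, 962 and 1098 CPM in the donor and at 582, 611, 789 and 998 CPM in the recipient library. Ece1 was higher in each further bin in both libraries, with overlapping intervals between the first 2 recipient bins. Cells at 5 or more exceeded cells at 0 in Edn1 by log2 ratios of 0.44 (0.32 to 0.55) in the donor and 1.41 (1.16 to 1.67) in the recipient library, and in Ece1 by 0.65 (0.55 to 0.75) and 0.78 (0.56 to 0.995). Aplnr was lower in them, at 169 against 211 CPM in the donor and 237 against 318 CPM in the recipient library. The recipient bins held 77 to 141 cells each, and the steeper recipient slope of Edn1 was not tested. The recipient bin at 0 held 23 Ednrb UMIs (51.9 CPM) and 10 Apln UMIs. The other recipient bins held 3 to 6 Ednrb and 1 to 3 Apln UMIs each. The part of aerocyte RNA in the bin at 0 was not tested. Cells at 5 or more were also deeper than cells at 0, at medians of 5576.5 against 5098.5 UMIs in the donor library. The recipient medians were 6181 and 5229 UMIs, and the part of depth was not tested.

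Edn1 was lower in the 2 other general capillary states. In interferon-active cells, with at least 8 UMIs of Ifit1, Ifit3, Isg15, Rsad2 and Oasl2 together, it was at 439 CPM (413 to 466) in the donor and 712 CPM (620.0 to 814) in 46 recipient cells. In cells with none of these UMIs it was at 832 CPM (800.3 to 864) in the donor and 1041 CPM (965 to 1121) in the recipient library. The log2 ratios were -0.92 (-1.03 to -0.82) in the donor and -0.55 (-0.78 to -0.33) in the recipient library, while those of Ece1 were -0.14 and -0.12. Over 0, 1 to 2, 3 to 4, and 5 or more of these UMIs, recipient Edn1 was at 1041, 654, 842 and 630 CPM. The recipient decline was thus not stepwise, while donor Edn1 went from 832 to 688, 575 and 517 CPM. In donor interferon-active cells Ednrb was lower too (-0.72, -1.44 to -0.04). The intervals of Apln (-0.73, -1.69 to 0.17) and Aplnr (-0.14, -0.31 to 0.03) included equality. The share of all genes past 1.5-fold is not given for this state. Interferon-active cells were deeper, at medians of 5996.5 against 4890 UMIs in the donor and 6072 against 4909 in the recipient library. The part of depth was not tested. In tip-like cells, with at least 3 UMIs of Esm1 and Inhbb, Edn1 was at 468 CPM in 215 donor cells and 518 CPM in 28 recipient cells, against 675 and 804 CPM in donor and recipient cells with none. Apln, a gene of sprouting tip cells in other vessels, was at 18.1 CPM (11.6 to 27.0) in the donor tip-like cells and 11.3 CPM (9.30 to 13.5) in donor cells with none, with overlapping intervals and with 12 of its 24 UMIs in 3 cells. It had no UMI in the 28 recipient tip-like cells.

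**Figure D3:**
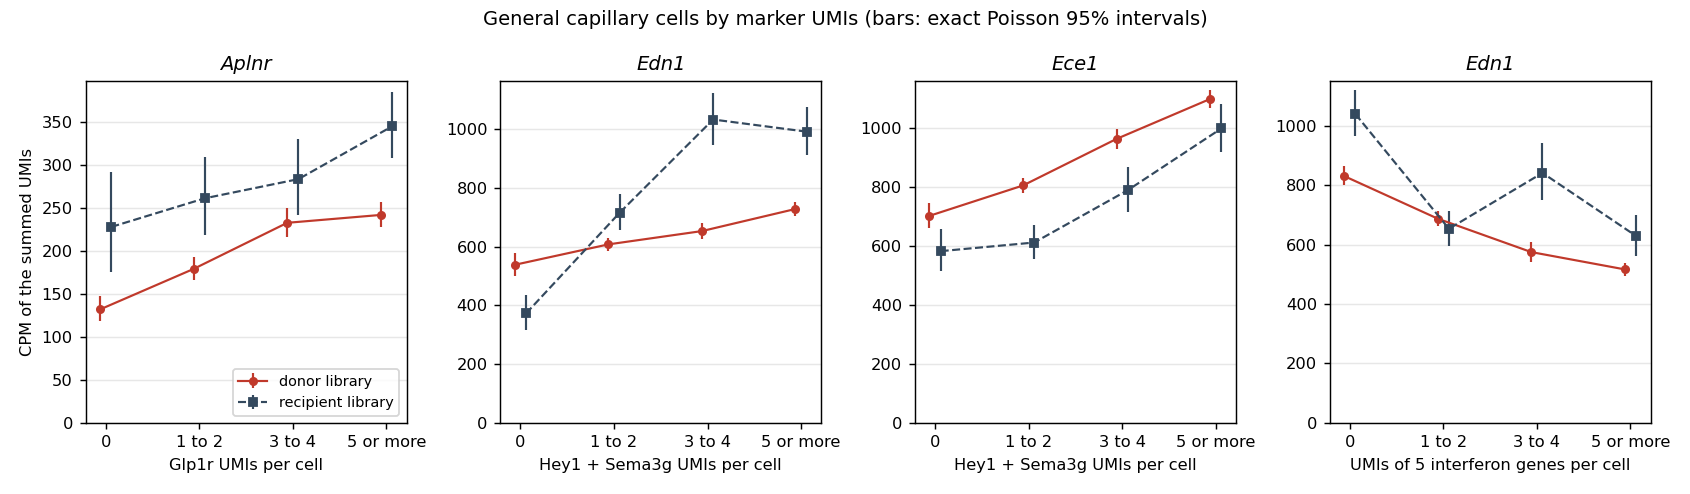
CPM of Aplnr, Edn1, Ece1 and again Edn1 in general capillary cells binned by the UMIs of state markers that are named under each panel, donor library as red circles with solid lines and recipient library as dark squares with dashed lines, bars as exact Poisson 95% intervals. Aplnr goes up with Glp1r in both libraries, Ece1 with Hey1 and Sema3g in both, and Edn1 is highest in cells without interferon gene UMIs in both.

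In aerocytes, Apln was somewhat higher in both states examined. Aerocytes with at least 2 UMIs of Serpina3k and Serpina3m, which encode serine protease inhibitors, had 527 CPM (508 to 546) in the donor and 553 CPM (519 to 588) in the recipient library. Aerocytes with none had 444 CPM (428 to 461) in the donor and 444 CPM (416 to 474) in the recipient library. The log2 ratios were 0.25 (0.17 to 0.32) in the donor and 0.31 (0.18 to 0.45) in the recipient library, so the intervals excluded equality but the differences were below 1.5-fold. Ednrb had log2 ratios of 0.12 (0.07 to 0.16) in the donor and 0.14 (0.07 to 0.21) in the recipient library. Aerocytes with at least 2 UMIs of Il1a, an interleukin gene, had 506 CPM of Apln in the donor and 524 CPM in the recipient library, against 459 and 464 CPM in donor and recipient aerocytes with none. Cells of these states were deeper: the donor medians were 10314.5 UMIs with and 8255 without Il1a, and the part of depth in these differences was not tested.

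Between the libraries, the members of aerocytes were nearly equal. Donor over recipient log2 ratios in aerocytes were -0.00 (-0.07 to 0.06) for Apln, -0.18 (-0.22 to -0.14) for Ednrb and -0.05 (-0.12 to 0.01) for Ece1. Among 3071 genes with at least 1000 UMIs in both aerocyte gates together, 97.7% lay at least as far from equality as Apln and 21.5% as far as Ednrb. Of the 6 genes tested in aerocytes, 1 was at least 1.5-fold higher and 1 at least 1.5-fold lower in the donor library, while 3.11% of all genes were higher, 6.63% lower and 9.74% past that fold in either direction. Both were rare transcripts there: Aplnr with 40 donor and 5 recipient UMIs (log2 ratio 1.476, 0.13 to 3.17), and Ednra with 9 donor and 30 recipient UMIs (log2 ratio -3.26, -4.52 to -2.15). With free RNA subtracted, the Ednra ratio was 0.75.

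General capillary cells showed differences in the abundant members. Aplnr was lower in donor cells, at 203 CPM, against 297 CPM in recipient cells, a log2 ratio of -0.55 (-0.67 to -0.43). Of 2937 genes with at least 1000 UMIs in these gates together, 1.29% had a lower ratio and 4.12% were at least as far from equality in either direction. Aplnr was lower in donor cells in each of the 4 Glp1r bins given above, and its thinned share of cells was 40.5% in donor and 55.2% in recipient cells. Edn1 was lower in donor cells by a log2 ratio of -0.28 (-0.35 to -0.21), with 6.23% of these genes below it and 16.6% at least as far from equality. In the bin without Hey1 or Sema3g UMIs it was higher, at 538 CPM in the donor and 372 CPM in the recipient library. That recipient bin had 77 cells and held 23 of the 36 Ednrb UMIs of the recipient gate. Ece1 was higher in donor cells by a log2 ratio of 0.32 (0.25 to 0.40), with 8.07% of these genes above it and 12.5% at least as far from equality, and was higher in each of the 4 Hey1 and Sema3g bins.

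None of these 3 genes reached 1.5-fold, and their intervals cover counting error, not the differences between animals. Over the alternative settings the log2 ratio stayed between -0.60 and -0.49 for Aplnr, between -0.32 and -0.25 for Edn1 and between 0.29 and 0.34 for Ece1. Of the 5 members tested in general capillary cells, Apln alone was past 1.5-fold (log2 ratio 0.71, -0.01 to 1.52, from 170 donor and 17 recipient UMIs), while 17.2% of all genes were. Ednrb had a log2 ratio of 0.06 (-0.45 to 0.61). For both genes most recipient UMIs lay in 3 cells, which their counting intervals do not cover.

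In venous cells, 2 of 5 members tested were at least 1.5-fold higher in the donor library, where 11% of all genes were higher, 8.49% lower and 19.5% past that fold in either direction. They were Apln (log2 ratio 1.13, 0.18 to 2.18) and Ednrb (log2 ratio 0.95, 0.27 to 1.67), the genes whose venous UMIs lay mostly in 3 cells. Without the barcodes present in both libraries, the Ednrb ratio was 0.15. The genes spread over many venous cells were closer to equality, with log2 ratios of 0.26 (-0.15 to 0.67) for Aplnr, 0.08 (-0.08 to 0.24) for Edn1 and 0.21 (0.07 to 0.35) for Ece1.

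**Figure D4:**
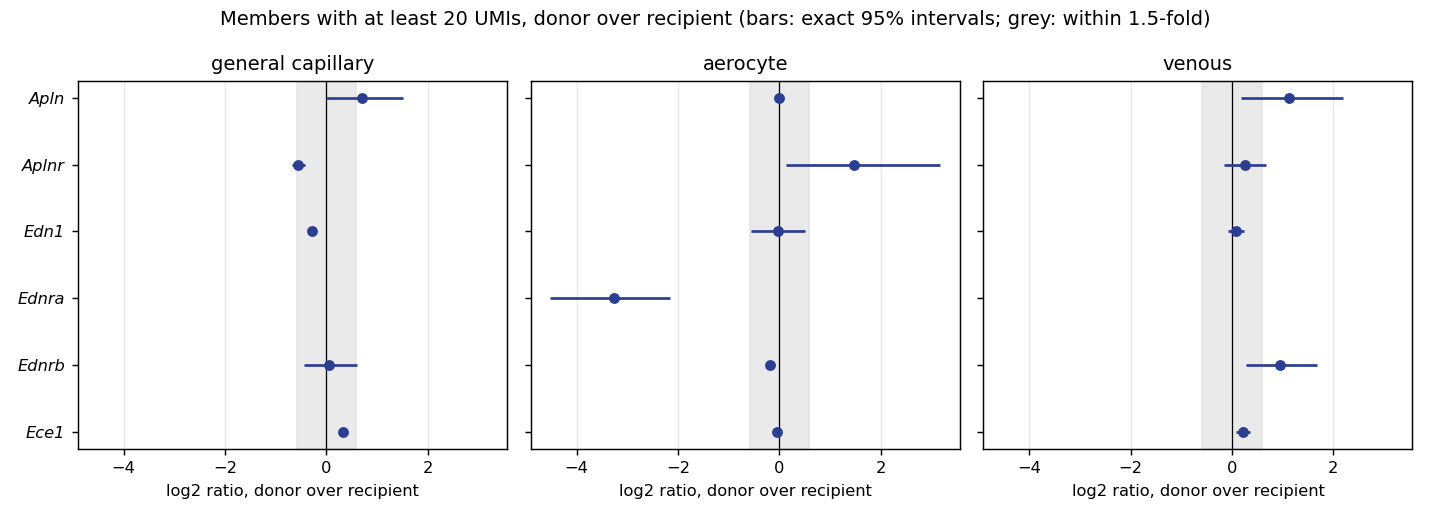
Donor over recipient log2 ratio of each member with at least 20 UMIs in both libraries together, in general capillary cells, aerocytes and venous cells, with exact 95% intervals and a grey band within 1.5-fold. Apln and Ednrb in aerocytes lie near 0, Aplnr in general capillary cells lies below 0, and the points outside the band have wide intervals.

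Other genes of both pathways were taken from a list of 30 that covers further ligands and proteases, G protein subunits, arrestins, phospholipases and downstream factors. The further ligands were rare: Apela, another ligand of the apelin receptor, and Edn2 were at or below 1.5 CPM in each gate of at least 38 cells. Edn3, the third endothelin, was found outside endothelium, at 26.1 CPM in donor and 42.5 CPM in recipient alveolar type 1 cells and at 37.2 CPM in recipient pericytes. Mme, the membrane peptidase neprilysin that degrades endothelin, was at 192 CPM in recipient alveolar fibroblasts and at or below 3.14 CPM in every endothelial gate. Nos3, the endothelial nitric oxide synthase, stood at 42.8 CPM in donor and 82.8 CPM in recipient venous cells but at 2.08 and 2.56 CPM in donor and recipient aerocytes, the cells with the highest Ednrb.

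Donor over recipient, 22 of the 30 list genes could be tested in each of the 3 endothelial gates. In general capillary cells 2 were at least 1.5-fold higher and 0 lower, beside 8.01% and 9.14% of all genes, and the list's median log2 ratio was 0.08 beside -0.00 over all genes. They were Pcsk5, a proprotein convertase, at 93.0 CPM in donor and 56.8 CPM in recipient cells (log2 ratio 0.71, 0.45 to 0.98), and Rgs5, a G protein regulator. Rgs5 had 155 UMIs in donor and none in recipient general capillary cells, 8.43-fold higher with the recipient 0 read as 3 counts. In aerocytes the same pair of genes was past the fold, from 30 donor and 1 recipient UMIs of Pcsk5 and 20 and 1 of Rgs5, with a median of 0.06 beside -0.03 over all genes. In venous cells Plcb1, a phospholipase, was higher at 95.7 CPM in donor and 56.6 CPM in recipient cells. Rgs5 had 161 UMIs in donor and none in recipient venous cells, 32.7-fold higher with that 0 read as 3 counts. Nos3 was lower in venous cells (log2 ratio -0.95, -1.44 to -0.47), and the list's median was 0.09 beside 0.05. In alveolar type 1 cells, most of which had shared barcodes, 18 were tested, with Mme, Plcb3 and Foxo1 higher and Edn3 and Pcsk7 lower (intervals of Foxo1, Edn3 and Pcsk7 included equality), where 31.7% of all genes were past the fold.

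The genes most like each member were ranked by Pearson correlation of log2(CPM + 1) over 14 points, which are the gates with at least 50 cells in a library. These points share libraries and depth, and the correlations are a description. Apln was closest to Prx, which encodes periaxin (0.95, with 520 CPM in donor aerocytes), Cdkn2a (0.95) and Pphln1 (0.94). Ednrb was closest to Itgb7, Naa80 and Lmntd1, all at 0.92 and all highest in recipient aerocytes. Aplnr was closest to Ciart (0.96), Fam167b (0.96) and Fut2 (0.95), and Edn1 to Fut2 (0.99), Gata3, a GATA factor (0.98, highest in donor venous cells at 151 CPM), and Fam167b (0.97). Ednra was closest to Tnfrsf19 (0.99), Arhgap24 and Cacna2d1 (both 0.97), each highest in recipient alveolar fibroblasts. Ece1 was closest to Psme1 (0.98), Pdlim1 and Zfpm1. Among the members themselves, Aplnr and Edn1 had a correlation of 0.95, Apln and Ednrb 0.83, Apln and Edn1 0.24, and Apln and Aplnr 0.12.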

How the data were processed

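The deposited values were raw UMI counts per gene and barcode, made by the authors with Cell Ranger as filtered matrices on mm10; the file headers and the submitters' processing notes give version 4.0.0 and the labels' protocol 3.0.1. The members and gene lists were chosen with earlier results of these data known, and gate minimums after marker UMIs had been seen. Barcodes over 3 scaled median absolute deviations from their library's median in genes, UMIs or mitochondrial share were removed (kept were 691 to 7887 genes, up to 36142 UMIs and up to 6.68% for donor barcodes; for recipient barcodes, 803 to 7422 genes, up to 31040 UMIs and up to 7.35%). Doublets were the highest Scrublet scores (scanpy 1.11.5) at 0.8% per 1000 barcodes, which took 301 donor and 109 recipient barcodes.

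A cell needed at least 10 UMIs of its lineage panel and 3 times those of any other. Capillary types needed 8 UMIs of their own markers and 2 times the other type's, venous cells 8 from at least 2 markers, arterial cells 5 including 3 of Gja5, Bmx and Dkk2, lymphatic cells 4, fibroblast types 10 (myofibroblasts 8) and alveolar type 1 cells 10. States are described where they appear. UMIs were summed per library and gate in Python 3.11.15 (NumPy 2.4.6, SciPy 1.17.1), with exact Poisson, binomial and conditional 95% intervals for counting error only. A ratio was called past 1.5-fold between libraries or 4-fold between types, among genes with at least 20 UMIs in both gates together. With 1 library per group no test was made and no p-value computed. The call procedure was tested on simulated Poisson counts drawn from summed gates. That test does not cover genes whose UMIs lie in few cells. In ratios, a count of 0 was read as 3 counts. Named genes were the members, list genes past 1.5-fold, and for each member the 3 most correlated genes that reached 20 CPM, none of them a marker. List genes named for their level were chosen after their values were seen. One gene of the pathway list is counted with the list but not reported here by name.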

Additional observations from a re-analysis of the deposited data

How the results depend on the processing

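With 1 library per group, counting intervals were the only error available, and some recipient values rested on few cells, with 38 arterial, 28 tip-like and 46 interferon-active ones. No paired analysis was possible because each group was 1 library and the labels carry no replicate numbers. Of 211 log2 ratios recomputed, 190 stayed within the counting interval of the main value and 20 moved outside it. A turn of sign was counted only for ratios past their fold, and 1 turned: Ednra in aerocytes, donor over recipient, became 0.75 with free RNA subtracted. The 4 members at least 4-fold apart between capillary types were within 1.5 times that number under each setting. Counts of members past 1.5-fold were small and moved: in general capillary cells 0 with the gate minimum doubled, 3 with free RNA subtracted, 2 with the mean of per-cell CPM, and 0 when the interval also had to exclude equality, a rule chosen after seeing the data; in aerocytes 0 at a minimum of 100 UMIs; in venous cells 1 at 100 UMIs, without shared barcodes, with the gate minimum doubled and with the mean of per-cell CPM. List genes past the fold were 1 with the gate minimum doubled and 6 with no UMI minimum in general capillary cells, 0 at 100 UMIs and 5 with no minimum in aerocytes, and 5 with no minimum in venous cells. The cause was not tested. Free RNA was estimated at 0.91% to 1.70% of UMIs in the donor blood vessel gates and 2.91% to 4.44% in the recipient ones. Its profile was the sum of all barcodes of a library, cells included, and not of empty droplets. Its amount was scaled by the epithelial genes Sftpc, Sftpa1, Sftpb, Scgb1a1 and Scgb3a2. The values with free RNA subtracted depend on these choices.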
